A study of Mus musculus with 6 samples.

Results

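The genes described here are 38 genes of protein folding and the response to misfolded protein, chosen by symbol: 16 chaperones and co-chaperones of the cytosol, 3 of the mitochondrion, 15 proteins of the endoplasmic reticulum (ER) and 4 transcription factors that govern these systems. The rule that lists them uses no measured value, but the members were chosen with earlier results of these data known. All 38 were found among the 29469 genes with any count, and all 38 passed the filter on low counts that left 16745 genes for testing. The libraries came from the hippocampi of newborn (P0) mice and were poly(A)-selected and strand-specific, and each pooled RNA of at least 2 pups, of a sex that the labels do not state. There were 3 libraries labelled *Mov10* Deletion and 3 labelled WT. A *Mov10* Deletion mouse carries a floxed *Mov10* gene recombined by Cre from the *Emx1* locus, combined with a heterozygous *Mov10* mutation present in every cell. *Emx1* drives Cre in precursors of the excitatory neurons and astrocytes of cortex and hippocampus, so cells of other origin, such as vessels, microglia and interneurons, keep a working copy in these animals. MOV10 is an RNA helicase that acts with AGO2 in silencing by microRNAs. The question put to the data was whether chaperone and stress genes differ between *Mov10* Deletion and WT hippocampus, and in which cell compartment.

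Chaperones of the HSP70 family hold unfolded stretches of protein in a cycle driven by ATP. J-domain proteins start that cycle and nucleotide exchange factors, such as the HSP110 proteins, reset it, while HSP90 acts later on partly folded clients. Damaged protein in the cytosol releases the transcription factor HSF1, which switches on *Hspa1a*, *Hspa1b*, *Dnajb1*, *Hspb1* and *Bag3* within minutes. Misfolded protein in the ER sets off the unfolded protein response, in which ATF6, XBP1 and ATF4 raise the chaperones of the ER lumen, and prolonged PERK and ATF4 signalling brings up *Ddit3*, which encodes CHOP. Neurons keep much constitutive HSC70 (*Hspa8*) and HSP90 and induce HSP70 weakly.

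The libraries held between 71400300 and 86207971 estimated counts. *Mov10* itself was at 2.45, 2.14 and 2.09 CPM in the *Mov10* Deletion libraries, against 4.81, 4.75 and 4.80 CPM in WT. CPM are counts scaled to a common library size by TMM normalization, without correction for the factors of unwanted variation used in the test. Markers of excitatory neurons summed to between 1278 and 1334 TPM (a share of all transcripts, corrected for transcript length) in *Mov10* Deletion, against between 1298 and 1335 TPM in WT. Since whole tissue was measured, a lower value from fewer cells of a type and one from less RNA per cell cannot be told apart.

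Of the 38 genes, 9 were called higher in *Mov10* Deletion (23.7% of them) and 3 were called lower (7.89%), where a call is an adjusted p under 0.05 with limma-trend and 2 factors of unwanted variation. Among all genes tested 12.6% were called higher and 12.1% were called lower (2104 and 2033 genes, against 2320 and 1491 with upper-quartile normalization, under which 11 members were called higher and 2 lower). Without reference to any model, 14 of the 38 had all 3 *Mov10* Deletion libraries above all 3 WT libraries (36.8%, against 20.4% of all genes), and 7 had all of them below (18.4%, against 21.2%). The differences were small. The median log2 fold change was 0.05 for the 38 genes, or 0.02 without the third WT library, and 0.01 for all genes, and *Calr* and *Ddit3* alone exceeded 0.25 in size. By compartment, 5 of 15 ER genes were called higher (33.3%) and 1 lower (6.67%), and 3 of 16 cytosolic genes were called higher (18.8%) and 1 lower (6.25%). Of the regulators, 1 was called in each direction. None of the 3 mitochondrial genes was called in this fit, and 1 had an unadjusted p under 0.05. With the factors DESeq2 called 1 of them lower and edgeR 0. Limma with DESeq2 size factors or length-scaled counts called *Hspd1* lower (adjusted p = 0.0492 and 0.0264). The median log2 fold change was 0.11 over the ER genes, 0.00 over the cytosolic genes and -0.08 over the mitochondrial genes. Whether the compartments differ from one another was not tested.

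Fitted without factors, 6 members were called higher, where 11% of all genes were, and 1 lower, where 9.96% were. These 7 were *Calr*, *Hspa4*, *Pdia6*, *Hsph1*, *Xbp1* and *Hsp90b1*, which were higher, and *Hspa13*, which was lower.

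**Figure D1:**
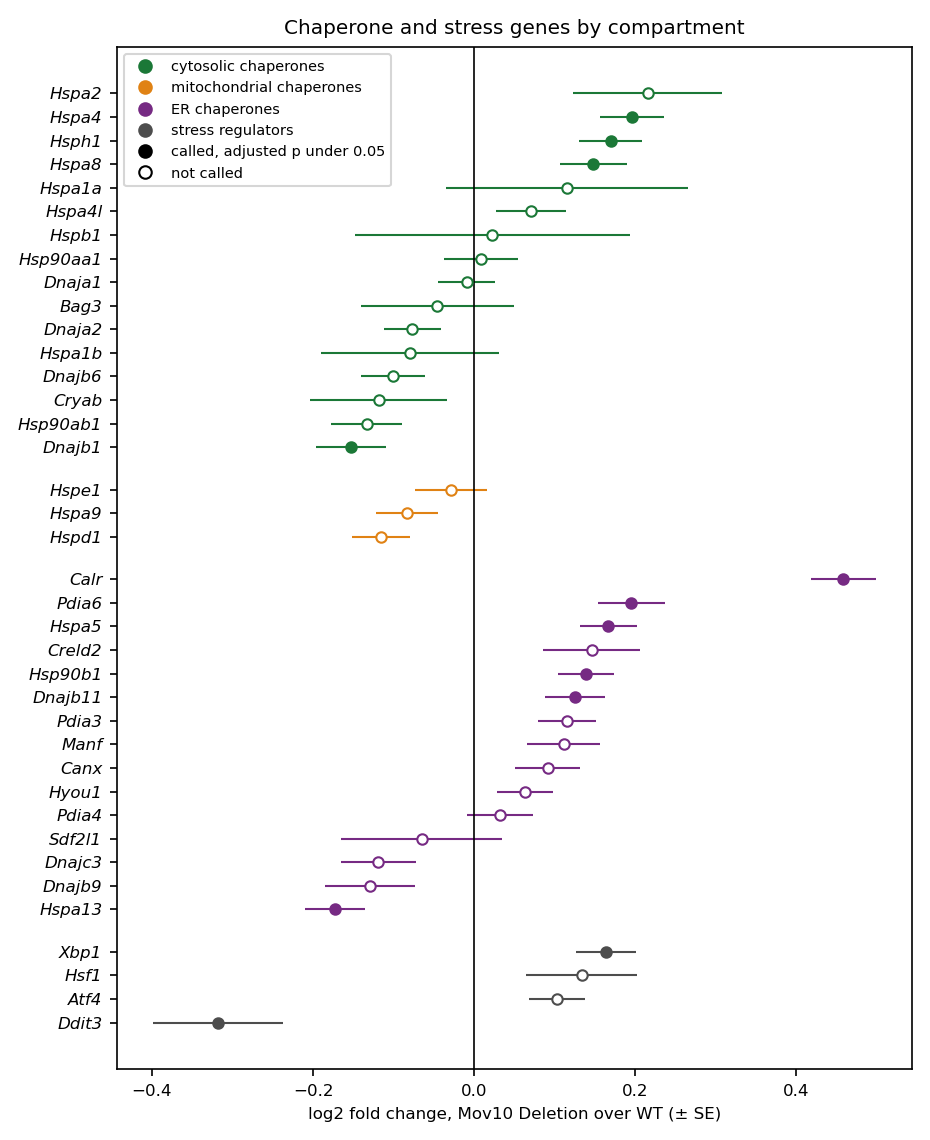
Fitted log2 fold change of each of the 38 genes, *Mov10* Deletion over WT, with its standard error, ordered within the cytosolic, mitochondrial, ER and regulator groups; filled points were called and open points were not. *Calr*, at 0.46, stood apart from all other members, 11 of the 15 ER genes lay above 0 and the 3 mitochondrial genes lay below it.

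The ER lumen held the clearest change of the set. *Calr* (chr8:85567946-85573667 on GRCm39, minus strand), which encodes calreticulin, a soluble lectin chaperone and calcium store of the ER, was at 375, 334 and 343 CPM in the *Mov10* Deletion libraries, against 260.4, 260.2 and 217 CPM in WT. The groups did not overlap, and the lowest *Mov10* Deletion library was well above the highest WT library. Calreticulin mRNA rose 1.37-fold (log2 fold change 0.46 ± 0.04 SE, n = 3 each, adjusted p = 0.00115, limma), and it was called under all 27 alternative settings, with log2 fold changes between 0.42 and 0.56. Its membrane-bound relative calnexin (*Canx*), which works on the same glycoproteins, averaged 329 ± 8.94 CPM in *Mov10* Deletion pools and 304 ± 16.1 CPM in WT pools (SD, n = 3 each) and was not called (adjusted p = 0.135, limma), although its groups did not overlap either. The ratio of *Calr* to *Canx*, taken within each library per TPM, was 1.47, 1.34 and 1.41 in *Mov10* Deletion and 1.11, 1.06 and 0.98 in WT. The balance of the lectin pair therefore lay further toward the soluble member in every *Mov10* Deletion library.

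*Hspa5* (chr2:34661982-34668880) encodes BiP, the HSP70 of the ER and the protein that holds the stress sensors inactive. It was at 222, 191 and 194 CPM in the *Mov10* Deletion libraries, against 183, 182 and 159 CPM in WT. The groups were apart but close, with the first *Mov10* Deletion library and the third WT library at the extremes. BiP mRNA rose 1.12-fold (log2 fold change 0.17 ± 0.04 SE, adjusted p = 0.0150, limma), and the call was lost without factors (adjusted p = 0.0566) and with length-scaled counts (adjusted p = 0.0509). It was kept under 16 of the 27 alternatives. *Hsp90b1* (chr10:86526073-86541446), the HSP90 of the ER known as GRP94, was at 281, 255 and 254 CPM in the *Mov10* Deletion libraries, against 238, 242 and 228 CPM in WT. It rose 1.10-fold (adjusted p = 0.0253, limma), and leaving out the second WT library raised the adjusted p to 0.106. Its call was kept under 17 of the 27 alternatives. These 2 abundant ER chaperones thus differed by much less than calreticulin did.

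*Pdia6* (chr12:17316533-17335913), a protein disulfide isomerase that binds BiP, was at 139, 152 and 138 CPM in the *Mov10* Deletion libraries, against 128, 124 and 119 CPM in WT. Its groups did not overlap and it rose 1.15-fold (log2 fold change 0.20 ± 0.04 SE, adjusted p = 0.0146, limma). *Dnajb11*, which encodes ERdj3, the J-domain protein that hands clients to BiP, was at 58.0, 55.1 and 56.3 CPM in the *Mov10* Deletion libraries, against 50.03, 52.4 and 55.8 CPM in WT. Here the groups overlapped. It was called higher (1.09-fold, adjusted p = 0.0453, limma), but the call was lost without factors (adjusted p = 0.189) and on leaving out the first *Mov10* Deletion library, the first WT library or the second WT library (adjusted p = 0.0726, 0.474 and 0.192). With 1 factor its adjusted p was 0.202, and with DESeq2 and the factors 0.123. The call of *Dnajb11* was kept under only 9 of the 27 alternatives.

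*Hspa13* (chr16:75542319-75563992), an HSP70-like ATPase of the microsomal fraction, went the other way. It was at 63.3, 60.3 and 60.2 CPM in the *Mov10* Deletion libraries, against 66.5, 70.5 and 73.8 CPM in WT. The groups did not overlap, and it fell by 0.17 on the log2 scale (SE 0.04, adjusted p = 0.0146, limma). Without the second WT library the adjusted p was 0.0718. The remaining 8 ER genes were not called. *Pdia3* (0.11, adjusted p = 0.0522), *Manf* (0.11), *Creld2* (0.15) and *Hyou1* (0.06) had positive log2 fold changes and no overlap between groups. *Pdia4* (0.03), *Sdf2l1* (-0.07), *Dnajc3* (-0.12) and *Dnajb9* (-0.13) had groups that overlapped. *Dnajb9*, *Sdf2l1* and *Dnajc3* are standard targets of the unfolded protein response, as *Hspa5*, *Pdia6* and *Hsp90b1* are. The negative values of *Dnajb9*, *Sdf2l1* and *Dnajc3* were not called, and that of *Sdf2l1* was smaller than its SE (0.10). These values therefore do not establish that *Dnajb9*, *Sdf2l1* or *Dnajc3* was lower in *Mov10* Deletion.

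**Figure D2:**
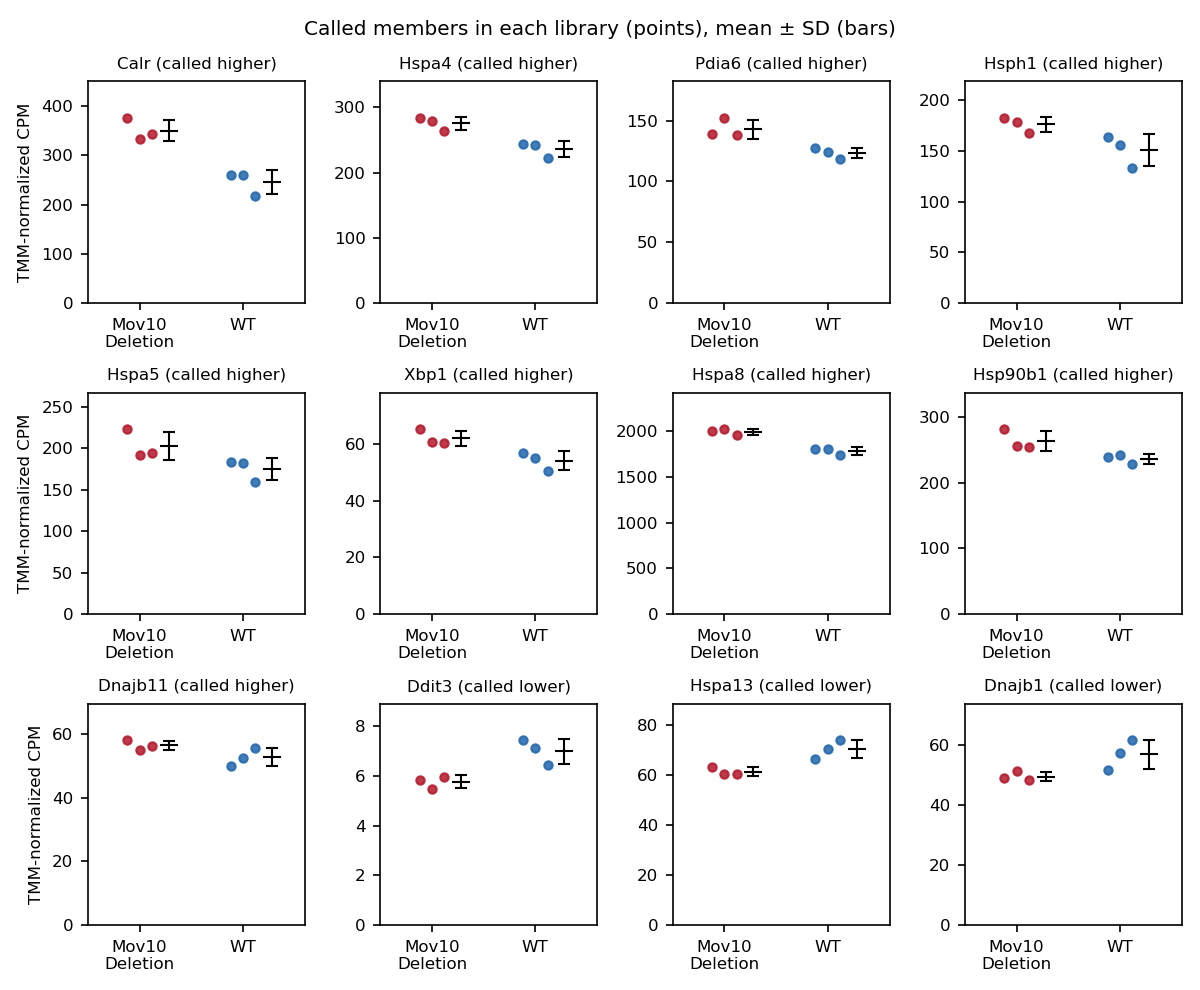
TMM-normalized CPM of the 12 called genes in each library (points, replicates 1 to 3 from left to right) with the mean and SD (bars), *Mov10* Deletion on the left and WT on the right of each panel. *Calr* showed the widest gap, 334 or more CPM in every *Mov10* Deletion library and 260.4 or less in every WT library, and *Dnajb11* was the called gene whose groups overlapped.

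RefSeq promoters (250 bases before to 50 bases after the start, GRCm38.p6) were found for 29 of the 38 genes, 12 of them ER genes. They were searched on both strands for elements bound by stress regulators, as a description of the promoters. The ER stress response element, bound by ATF6 with NF-Y and spelled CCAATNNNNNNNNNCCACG, lay in the promoters of 7 of the 12 ER genes. It was in none of the 17 other members searched, and in 0.137% of all 27025 genes with a promoter. *Calr*, *Hspa5*, *Hsp90b1* and *Pdia6*, which were called higher, had it, and so did *Canx*, *Creld2* and *Dnajc3*, which were not called. A match describes the letters and is no measure of binding. The ER genes were listed as genes of this system, and several are standard targets of the unfolded protein response. That its element is common among them therefore says nothing about the difference between *Mov10* Deletion and WT. The elements of the called genes are shown in the reading direction of the motif, with its fixed letters in capitals.
Calr, chr8:84847072-84847096, plus strand: gggCCAATgagggtcgaCCACGcgt
Hspa5, chr2:34772022-34772046, plus strand: tcaCCAATcggaggcctCCACGacg
Hsp90b1, chr10:86705635-86705659, minus strand: agcCCAATcgcaaggagCCACGctt
Hsp90b1, chr10:86705530-86705554, plus strand: tcaCCAATcgtgcctcaCCACGcac
Pdia6, chr12:17266488-17266512, plus strand: agaCCAATgaaaggcggCCACGgcg
Dnajc3, shown as a gene with the element and a negative log2 fold change, chr14:118937824-118937848, plus strand: caaCCAATcagcgccaaCCACGacc

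*Dnajb11*, the other called ER gene with a promoter in the table, held the second ER element, ATTGGNCCACG, which shares the letters CCACG with the first and occurs in 0.037% of promoters (chr16:22857849-22857865, plus strand, gcgATTGGcCCACGcct). The XBP1 element TGACGTGG (0.676% of promoters) and the composite element of ATF4 and CHOP, TGATGNAA (3.97%), were in none of the 29.

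The 4 regulators did not move as a block. *Xbp1* (chr11:5470606-5483027) was at 65.1, 60.7 and 60.4 CPM in the *Mov10* Deletion libraries, against 56.6, 55.2 and 50.3 CPM in WT. The groups did not overlap and it rose 1.12-fold (log2 fold change 0.16 ± 0.04 SE, adjusted p = 0.0191, limma), with an adjusted p of 0.0659 once the second WT library was left out. *Ddit3* (chr10:127124268-127132163), the gene of the pro-apoptotic factor CHOP, was at 5.84, 5.46 and 5.96 CPM in the *Mov10* Deletion libraries, against 7.42, 7.12 and 6.43 CPM in WT. It was lower in every *Mov10* Deletion library than in any WT library and fell by 0.32 on the log2 scale (SE 0.08, adjusted p = 0.0261, limma). That call was lost without factors (adjusted p = 0.0529) and without the first or the second WT library (adjusted p = 0.118 and 0.0743). With DESeq2 and the factors its adjusted p was 0.0891, and the call was kept under 14 of the 27 alternatives. Of all members *Ddit3* had the most negative log2 fold change. Whether the unfolded protein response was active was not tested.

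*Atf4* was at 104, 101 and 101 CPM in the *Mov10* Deletion libraries, against 90.1, 97.1 and 107 CPM in WT, with overlapping groups (log2 fold change 0.10, adjusted p = 0.0631, limma). ATF4 is controlled mainly at translation, which these data do not measure. *Hsf1* was at 25.1, 23.1 and 26.9 CPM in the *Mov10* Deletion libraries, against 24.1, 21.8 and 20.7 CPM in WT (log2 fold change 0.13, adjusted p = 0.191, limma). Its groups overlapped too. Neither of these factors was called.

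In the unfolded protein response the enzyme IRE1 removes 26 bases from *Xbp1* mRNA, which shifts the reading frame and yields the active factor. The annotated stretch that the spliced form lacks, chr11:5474278-5474303 on GRCm39, is printed here in capitals with 2 flanking bases on each side because it separates the forms: ccGCAGCACTCAGACTATGTGCACCTCTgc. The unspliced form, Xbp1-201, held 95.7%, 96.6% and 96.4% of the gene's counts in the *Mov10* Deletion libraries, and 95.9%, 96.3% and 96.7% in WT. The spliced form, Xbp1-205, was assigned 26.9, 3.99 and 3.52 counts in the *Mov10* Deletion libraries, against 11.1, 4.54 and 0 counts in WT, where 0 allows up to 3. The first library of each group held most of these counts, the other 4 libraries were at 4.54 counts or fewer, and the groups overlapped, so no difference in splicing was detectable at this depth. The spliced entry was below the filter of the usage test and received none.

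In the cytosol *Hspa8* (chr9:40711630-40731039), which encodes the constitutive HSP70 that also uncoats clathrin vesicles, was at 2006, 2022 and 1956 CPM in the *Mov10* Deletion libraries, against 1813, 1804 and 1738 CPM in WT. The groups did not overlap and it rose 1.11-fold (log2 fold change 0.15 ± 0.04 SE, adjusted p = 0.0371, limma), a call that was lost without factors (adjusted p = 0.0528) and without the second WT library (adjusted p = 0.278), and kept under 16 of the 27 alternatives. The HSP110 proteins, which recharge HSP70, followed it. *Hspa4* (chr11:53150641-53191531) was at 283, 279.7 and 264 CPM in the *Mov10* Deletion libraries, against 244, 243 and 222 CPM in WT. *Hsph1* (chr5:149537636-149560156) was at 182, 178 and 168 CPM in the *Mov10* Deletion libraries, against 164, 156 and 133 CPM in WT. Neither gene overlapped between groups. *Hspa4* rose 1.15-fold (log2 fold change 0.20 ± 0.04 SE, adjusted p = 0.0125, limma) and *Hsph1* rose 1.12-fold (adjusted p = 0.0196, limma). The call of *Hsph1* was lost with a filter at 1 CPM (adjusted p = 0.0656) and with edgeR's test without factors (adjusted p = 0.0506), among 9 of the 27 alternatives. These 9 include 5 of the 6 fits without factors that leave out a library. Their relative *Hspa4l*, which is most abundant in testis, was not called (0.07, adjusted p = 0.263). Of the 4 HSP110 genes in the set, *Hyou1* of the ER included, all had positive log2 fold changes, between 0.06 and 0.20.

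*Dnajb1* (chr8:84334811-84339820), which encodes HSP40, the J-domain partner of inducible HSP70 and a target of HSF1, was at 48.8, 51.2 and 48.3 CPM in the *Mov10* Deletion libraries, against 51.7, 57.3 and 61.5 CPM in WT. The groups were just apart and it fell by 0.15 on the log2 scale (SE 0.04, adjusted p = 0.0391, limma). The call was lost without factors (adjusted p = 0.0503), and without the third *Mov10* Deletion library, the second WT library or the third WT library (adjusted p = 0.0742, 0.157 and 0.0557). With DESeq2 and the factors its adjusted p was 0.0585, and with upper-quartile normalization 0.073. The call of *Dnajb1* was kept under 12 of the 27 alternatives. Of all 7 J-domain genes, *Dnajb11* alone had a positive log2 fold change. *Dnaja2* and *Dnajb6* were lower in every *Mov10* Deletion library than in any WT library but were not called (adjusted p = 0.148 and 0.102), and *Dnaja1*, *Dnajb9* and *Dnajc3* overlapped.

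The genes that heat shock induces most were scarce. *Hspa1a* was at 1.93, 2.39 and 1.65 TPM in the *Mov10* Deletion libraries, against 2.03, 1.75 and 1.04 TPM in WT. *Hspa1b* was at 2.69, 3.08 and 2.67 TPM in the *Mov10* Deletion libraries, against 2.78, 3.12 and 2.59 TPM in WT. Their transcripts are 99.2% identical over 2201 bases, so the division of reads between them is uncertain and the sum is the firmer value. Summed, they came to 4.81 ± 0.60 TPM in *Mov10* Deletion and 4.44 ± 0.69 TPM in WT (SD, n = 3 each), with overlapping groups. Fitted singly neither was called (adjusted p = 0.607 for *Hspa1a* and 0.628 for *Hspa1b*, limma). *Hspb1* averaged 2.57 ± 0.18 TPM in *Mov10* Deletion and 2.42 ± 0.02 TPM in WT, and *Bag3* averaged 4.56 ± 0.42 TPM in *Mov10* Deletion and 4.39 ± 0.71 TPM in WT. The small heat shock protein *Cryab*, also a crystallin of the lens, averaged 27.6 ± 2.39 TPM in *Mov10* Deletion and 29.9 ± 2.27 TPM in WT. None of these 5 was called.

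*Hspa2*, an HSP70 best known from spermatogenesis that is also made in brain, had the highest cytosolic log2 fold change. It was at 13.8, 12.3 and 12.1 CPM in the *Mov10* Deletion libraries, against 10.8, 12.03 and 8.48 CPM in WT. The second WT library nearly reached the *Mov10* Deletion range, and the gene was not called (0.22 ± 0.09 SE, adjusted p = 0.126, limma). Without that library its adjusted p was 0.0231.

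The cytosolic HSP90 genes did not follow *Hspa8*. *Hsp90ab1*, the constitutive HSP90 beta, averaged 2202 ± 59.4 CPM in *Mov10* Deletion pools and 2448 ± 85.5 CPM in WT pools (SD, n = 3 each). All 3 *Mov10* Deletion libraries lay below all 3 WT libraries, yet the gene missed the threshold (log2 fold change -0.13 ± 0.04 SE, adjusted p = 0.0609, limma) and passed it under 10 of the 27 alternatives. *Hsp90aa1*, the alpha form that stress induces, averaged 968 ± 42.1 CPM in *Mov10* Deletion pools and 965 ± 10.5 CPM in WT pools and overlapped. Within libraries the ratio of *Hspa8* to *Hsp90ab1*, per TPM, was 1.15, 1.11 and 1.11 in *Mov10* Deletion and 0.94, 0.93 and 0.85 in WT. These were the most abundant members of the set. Per TPM *Hspa8* stood above *Hsp90ab1* in each *Mov10* Deletion library and below it in each WT library. In CPM, which are not corrected for transcript length, *Hspa8* was below *Hsp90ab1* in every library of both groups. The genes set against each other in this and the other ratios were chosen with their values known, so the ratios are descriptions without a test.

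**Figure D3:**
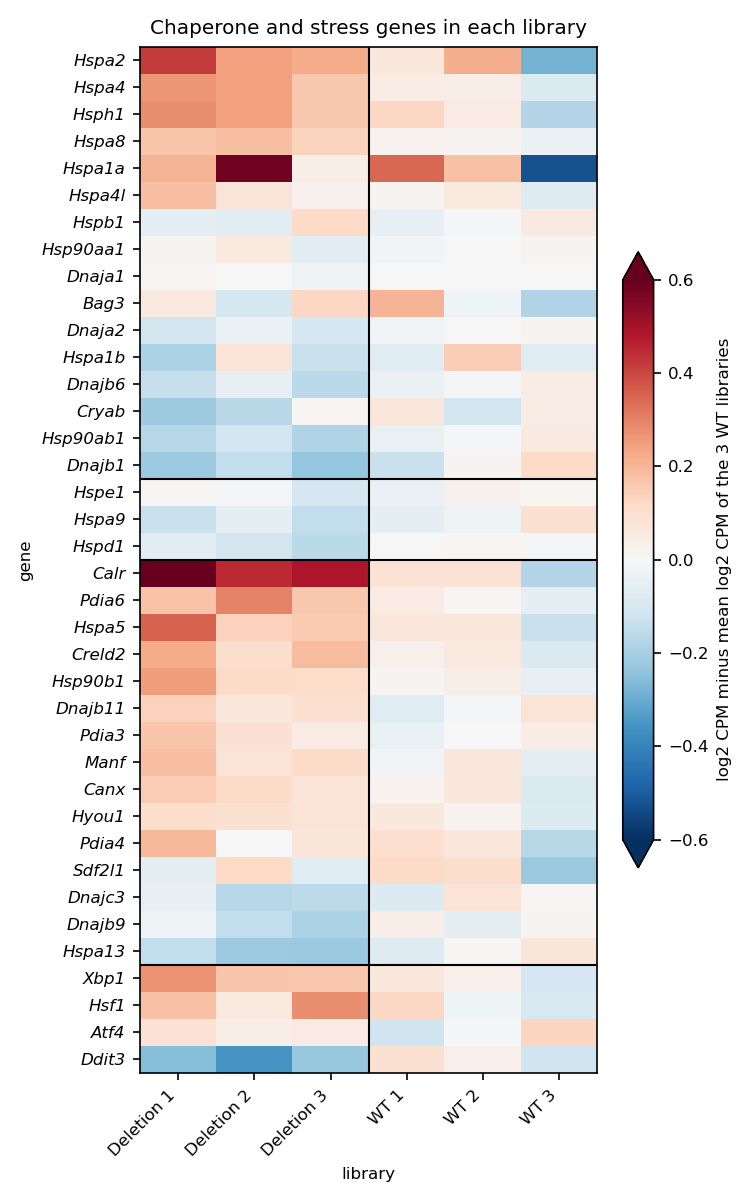
Log2 CPM of each of the 38 genes (rows, in the order of the fold change plot) in each library (columns, *Mov10* Deletion left of WT) minus the mean of the 3 WT libraries; red is higher and blue lower, and values beyond 0.6 take the end colour. Within *Mov10* Deletion the first library was the highest for 22 of the 38 genes, and within WT the third was the lowest for 23.

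The mitochondrial chaperones had negative log2 fold changes, none of which was called. *Hspd1* (HSP60), the barrel of the chaperonin, averaged 235 ± 7.95 CPM in *Mov10* Deletion pools and 253 ± 1.77 CPM in WT pools (SD, n = 3 each). Its groups did not overlap and it missed the threshold (log2 fold change -0.12 ± 0.04 SE, adjusted p = 0.0518, limma), passing it under 6 of the 27 alternatives. The lid, *Hspe1* (HSP10), averaged 54.5 ± 2.11 CPM in *Mov10* Deletion pools and 55.8 ± 1.33 CPM in WT pools and overlapped (-0.03, adjusted p = 0.666). *Hspa9* (mortalin), the HSP70 that pulls imported proteins into the matrix, was not called either (-0.08, adjusted p = 0.148). *Hspd1* and *Hspe1* are head-to-head neighbours on chromosome 1 and share 1 promoter. Of 13 other mitochondrial chaperones and proteases, 1 was called higher (7.69%) and 3 lower (23.1%). *Trap1*, the mitochondrial HSP90, rose 1.15-fold (adjusted p = 0.0195, limma), while *Atf5*, a transcription factor of the mitochondrial stress response, and *Clpx*, which unfolds proteins for the ClpP protease, fell by 0.20 and 0.17 on the log2 scale (adjusted p = 0.0144 and 0.0302). Per TPM the ratio of *Hspd1* to *Hspe1* was 0.93, 0.95 and 1.00 in *Mov10* Deletion and 1.08, 1.04 and 1.07 in WT.

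The heat shock element of 3 units, bound by HSF1 and spelled GAANNTTCNNGAA, was in 4 of the 29 genes searched and in 0.662% of all genes with a promoter. The shared promoter of *Hspd1* and *Hspe1* held it, as did those of *Hsph1* and *Dnajb6*, and none of the 12 ER genes had it. The element of 2 units, GAANNTTC, which is part of the longer one, was in 9 of the 29 genes and in 9.04% of all genes with a promoter. The further 5 genes were *Hspa1a*, *Hspa1b*, *Hspb1*, *Bag3* and *Dnaja1*. Of these 9 genes *Hsph1* alone was called. The sequences below are shown because the same element stood in genes with opposite signs, in capitals and in the reading direction of the motif.
Hsph1, chr5:149636285-149636303, plus strand: ggaGAActTTCcaGAAtct
Dnajb6, chr5:29735849-29735867, plus strand: cgaGAAtcTTCcgGAAcgc
Hspd1 and Hspe1, chr1:55088061-55088079, plus strand: ctaGAAccTTCcgGAAggc
Hspa1a, chr17:34972250-34972263, minus strand, 2 units: ctgGAAgaTTCctg

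Transcript usage, the share of a gene's counts that each of its transcripts takes, was tested for 27 members with diffSplice of limma, and 2 were called, where 5.51% of 10338 genes were. In *Dnaja1*, a J-domain partner of HSC70 whose total was not called, the short non-coding entry Dnaja1-206 took 32.8, 50.1 and 87.7 counts in the *Mov10* Deletion libraries, against 210, 171 and 368 counts in WT. The groups did not overlap, and the entry made up 0.14 ± 0.08% of the gene's counts in *Mov10* Deletion, against 0.58 ± 0.26% in WT (SD, n = 3 each; adjusted p = 0.00581 for the gene). The call was lost without the second WT library (adjusted p = 0.0937). The coding transcript Dnaja1-201 held 70.7 ± 2.42% of the counts in *Mov10* Deletion and 71.7 ± 0.77% in WT. In *Hsp90b1* (adjusted p = 0.0118) a short entry with a retained intron, Hsp90b1-204, took 59.5, 56.7 and 56.2 counts in the *Mov10* Deletion libraries, against 23.5, 28.7 and 39.4 counts in WT, without overlap. Tested singly it was higher relative to the rest of the gene (adjusted p = 0.0196), and the coding transcript Hsp90b1-201 was lower relative to the rest (adjusted p = 0.0115). The coding transcript held 98.9 ± 0.09% of the counts in *Mov10* Deletion and 99.3 ± 0.03% in WT. Another entry with a retained intron, Hsp90b1-202, took 188, 139 and 154 counts in the *Mov10* Deletion libraries, against 109.5, 99.3 and 82.1 in WT. Tested singly it was not called (adjusted p = 0.826). A filter at 1 CPM removed Hsp90b1-204, which was at 0.28 to 0.77 CPM. The gene was still called there (adjusted p = 0.0437), on the other entries alone. Its call was lost without factors (adjusted p = 0.107), and whichever library was left out (adjusted p between 0.0543 and 0.235). Dnaja1-206 and Hsp90b1-204 each held under 1% of their gene's counts.

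Around the 38 genes, further lists of the same systems were counted. Of 33 other cytosolic chaperones and co-chaperones, 5 were called higher (15.2%) and 3 lower (9.09%). Among them *Fkbp5*, a co-chaperone of the glucocorticoid receptor, averaged 51.2 ± 2.72 CPM in *Mov10* Deletion pools and 42.6 ± 1.94 CPM in WT pools and rose 1.22-fold (adjusted p = 0.00435, limma). *Bag4*, a nucleotide exchange factor of HSP70, averaged 57.3 ± 1.35 CPM in *Mov10* Deletion pools and 69.6 ± 0.96 CPM in WT pools and fell by 0.27 on the log2 scale (adjusted p = 0.00362). *Dnaja4*, another J-domain protein, rose 1.30-fold (adjusted p = 0.00815). All 8 subunits of TRiC, the cytosolic chaperonin that folds actin and tubulin, had negative log2 fold changes, between -0.19 and -0.07. For 7 of them every *Mov10* Deletion library lay below every WT library (87.5%, against 21.2% of all genes). Only *Cct2* (-0.19, adjusted p = 0.0152, limma) and *Cct4* (-0.15, adjusted p = 0.0190) were called (25%, where 12.1% of all genes were called lower).

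The other parts of the ER stress pathway were mixed. Of 15 sensors and their close targets, 2 were called higher and 2 lower (13.3% each). *Ern1*, which encodes IRE1 itself, rose 1.18-fold (adjusted p = 0.0186, limma) and *Wfs1*, an ER membrane protein that restrains ATF6, rose 1.16-fold (adjusted p = 0.0366), whereas *Selenos*, which takes part in ER-associated degradation, fell by 0.28 on the log2 scale (adjusted p = 0.00854). Of 37 genes of ER folding, translocation and degradation, 1 was called higher (2.7%) and 2 lower (5.41%), and the median log2 fold change was -0.06. The gene that rose was *Uggt1* (1.15-fold, adjusted p = 0.0113), the glucosyltransferase that returns misfolded glycoproteins to calreticulin and calnexin, and those that fell were *Ssr3* (-0.15, adjusted p = 0.0196) and *Sec62* (-0.13, adjusted p = 0.0388), both of the translocation machinery. The call of *Sec62* was lost without factors (adjusted p = 0.104). Most of these other ER genes were not called in either direction.

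Of 27 genes of the integrated stress response, mostly targets of ATF4, 8 were called lower (29.6%) and 2 higher (7.41%). *Slc3a2* and *Slc7a5*, the subunits of the large neutral amino acid transporter, averaged 121 ± 4.30 and 184 ± 8.38 CPM in *Mov10* Deletion, against 149 ± 3.08 and 230.1 ± 16.1 CPM in WT. They fell by 0.29 each on the log2 scale (adjusted p = 0.00336 and 0.00514, limma). *Psat1*, an enzyme of serine synthesis, fell by 0.23 (adjusted p = 0.00514). The genes called higher, *Eif2ak4* and *Eif2s1*, encode a kinase and its substrate at the head of the response and were named after their values were seen. Both calls were lost without factors (adjusted p = 0.147 and 0.0741), and the groups overlapped for *Eif2ak4*.

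**Figure D4:**
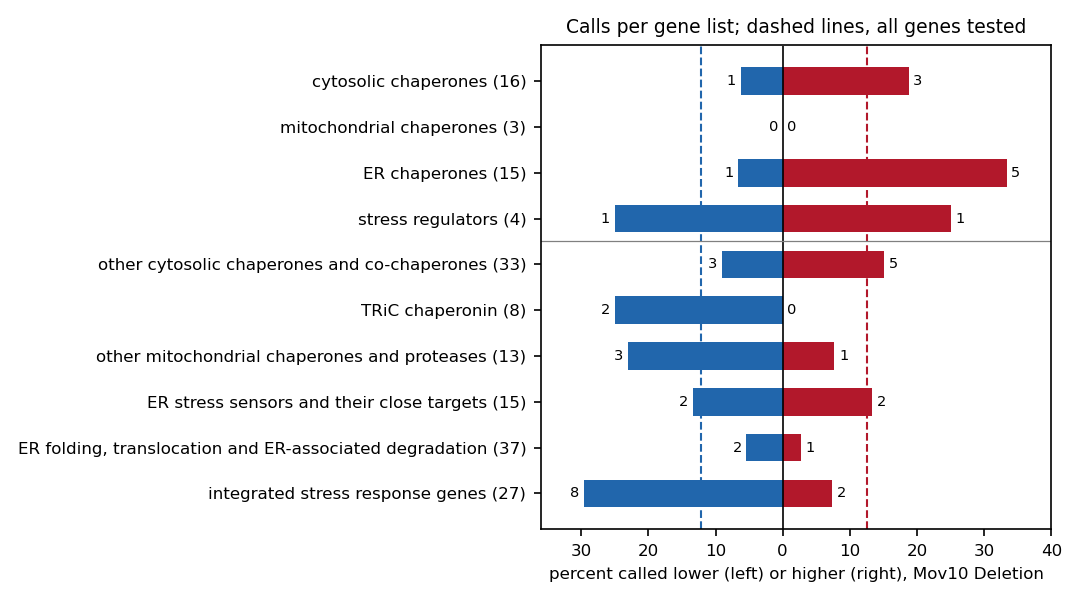
Percent of the tested genes of each list called higher (red, right) or lower (blue, left) in *Mov10* Deletion, with the number of genes at each bar, the number tested in brackets and dashed lines at 12.6% and 12.1%, the shares of all genes tested. The ER chaperones reached 33.3% on the right, the genes of the integrated stress response 29.6% on the left.

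Markers of other cells are given beside these values, and their lists did not move alike. Among all genes tested 12.6% were called higher and 12.1% lower. The 10 astrocyte markers summed to between 802 and 880 TPM in *Mov10* Deletion, against between 675 and 789 TPM in WT. Of the 10, 9 had positive log2 fold changes, of which *Aqp4*, *Gfap* and *S100b* were called (30% of the list). The choroid plexus and meningeal markers summed to 192 TPM in the first *Mov10* Deletion library, against 27.2 and 41.3 TPM in the other *Mov10* Deletion libraries and between 52.8 and 66.9 TPM in WT. That library was the highest *Mov10* Deletion library for 13 of the 15 ER genes, and the third WT library was the lowest WT library for 10 of the 15. Against 5 ER genes called higher from all libraries, 4 were called without the first *Mov10* Deletion library, 6 without the third WT library and 3 without the second WT library. Over all genes, 2104 were called higher from all libraries, and 2596, 2509 and 1656 in those 3 fits. Without factors the counts of ER genes were 3 from all libraries, 2 without the first *Mov10* Deletion library, and 1, *Calr*, without the third or the second WT library. Over all genes they were 1843 from all libraries, 1648 without the first *Mov10* Deletion library, 996 without the third WT library and 1031 without the second. Of 18 immediate early genes, which respond to handling of tissue, 3 were called higher (16.7%) and 6 lower (33.3%). They summed to between 253 and 271 TPM in *Mov10* Deletion, against between 289 and 302 TPM in WT. Of 9 progenitor markers 4 were called lower (44.4%) and 1 higher, and of 6 erythroid genes tested 3 were called lower (50%), while without factors 1 was called lower in each of these lists. The progenitor markers summed to between 610 and 704 TPM in *Mov10* Deletion, against between 650 and 692 TPM in WT, and the erythroid genes to between 1209 and 1709 TPM in *Mov10* Deletion, against between 1374 and 1761 TPM in WT. Of 8 markers of the oligodendrocyte lineage 7 had positive log2 fold changes, and 1 was called in each direction (12.5% each). Their sums were between 118 and 143 TPM in *Mov10* Deletion, against between 96.0 and 134 TPM in WT. Of 12 endothelial and pericyte markers 2 were called in each direction (16.7% each), with sums between 269 and 342 TPM in *Mov10* Deletion, against between 286 and 312 TPM in WT. Of 8 microglia markers none was called, with sums between 69.7 and 99.9 TPM in *Mov10* Deletion, against between 68.7 and 96.4 TPM in WT. No marker in these lists was under 0.1 TPM in all libraries, and their part in the results was not tested.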

How the data were processed

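RNA of P0 hippocampi was sequenced from 3 *Mov10* Deletion and 3 WT libraries, grouped by sample title, each a pool of at least 2 pups, so the spread is that between pools. The authors quantified reads with Salmon 1.4.0 against the mouse transcriptome on GRCm39 and deposited, per transcript, an estimated count that is not normalized. The deposited TPM are corrected by Salmon for effective length and library size. The release of their annotation was not found in the labels or the methods. The 139225 transcripts per file were matched by identifier to GENCODE M39, and 137570 matched; unmatched ones held 0.589% to 0.600% of counts and were left out. Counts were summed per gene.

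Genes that reached 0.25 CPM in 3 or more libraries were fitted with TMM, log2 CPM (prior count 2) and limma-trend with 2 RUVs factors (limma 3.58.1, edgeR 4.0.16, R 4.3.3), and adjusted by Benjamini-Hochberg over all 16745 genes. The methods name RUVSeq without its function; RUVs was written out in R, on the natural log of normalized counts plus 1. The fit left 2 residual and 5.89 prior degrees of freedom, so its p-values measure only the spread that the factors left. Fold changes are fitted coefficients. Transcript usage was tested with limma's diffSplice under the same filter and factors. Transcripts of the members were compared with other genes by blastn 2.17.0+ at 97% identity. Promoters came from RefSeq. Of the other settings tried, 20 covered factors, test (edgeR quasi-likelihood, DESeq2 1.42.0 on rounded counts), scaling, filter, prior count, replicate block and leaving out each library, and 7 were added after seeing the data. The fits were tested on simulated data. Members, gene lists and tests were chosen with earlier results of these data known. Values per library are given for members called, members without overlap and at least 0.2 in absolute log2 fold change, both *Hspa1* genes, *Hspa5*, *Hspa8* and the 4 regulators, and of other lists at most the 3 called genes with the smallest p are named by rule.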

Additional observations from a re-analysis of the deposited data

How the results depend on the processing

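No member changed direction where it was called, over 1025 fold changes refitted under alternative settings, of which 880 kept their side of the threshold, 107 lost a call and 38 gained one. The count of 9 members called higher was 2 with a score of sex-linked genes (the sex score) in place of the factors (*Calr* and *Pdia6*), 5 with edgeR's quasi-likelihood test without factors, and 1 without the filter on low counts (*Calr*). Over all genes that edgeR fit called 1827 higher. The count of 3 called lower was 1 without factors, 0 with the sex score and 0 without the filter; over all genes the sex score gave 767 calls higher and 597 lower, and the fit without the filter 445 and 480, and the cause was not tested. Leaving out each library in turn gave between 6 and 13 members higher and between 0 and 8 lower; without the second WT library these were 6 and 0, without the second *Mov10* Deletion library 13 and 8, and 7, 6 and 5 were lower without the first *Mov10* Deletion library, the first WT library and the third WT library. The counts over all genes moved too. They were 1656 higher and 1147 lower without the second WT library, and 2809 and 2988 without the second *Mov10* Deletion library. Without the first *Mov10* Deletion library, the first WT library and the third WT library, 2532, 2246 and 2387 of all genes were lower. Leaving out libraries without factors, added after seeing the data, gave between 2 and 5 members higher and between 0 and 2 lower. Over all genes those fits gave between 996 and 1648 higher and between 770 and 1428 lower. Usage calls numbered 2, but 1 without factors, 1 with 1 factor and between 1 and 3 on leaving out a library. The genes changed too. Without the first WT library they were *Dnaja1*, *Cryab* and *Hsph1* (adjusted p = 0.00618, 0.0261 and 0.0281, diffSplice). Without the second WT library *Hspa8* alone was called (adjusted p = 0.00712). Length-scaled counts called 7 higher and 4 lower, where 1538 and 1479 of all genes were, with a median of 0.01 over the members in place of 0.05.

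Replicate numbers did not pair the libraries: deviations of same-numbered libraries correlated at 0.01, -0.07 and 0.04, and not every library was closest to its own number. With the replicate block and no factors, 7 members were called higher and 2 lower, where 1857 and 1568 of all genes were. The 2 usage calls made there were *Dnaja1* and *Hspa8* (adjusted p = 6.7e-05 and 0.0411, diffSplice). *Hsp90b1* was not called there (adjusted p = 0.146). With the shorter heat shock element of 2 units in place of 3, matches covered 9 members in place of 4. Depth limited *Hspb1* (64 to 69 counts in *Mov10* Deletion libraries, 66 to 73 in WT libraries) and spliced *Xbp1*; the limit of 3 counts for a 0 covers counting error only.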
